A study of Mus musculus with 6 samples.

Results

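The immunoglobulin segments are the V, J and constant (C) region genes from which antibody heavy, kappa and lambda chains are made. They were taken by symbol (Ighv, Ighj, Ighd, Ighm, Igha, Ighe, Ighg1 to Ighg3 with their letters, and the matching kappa and lambda symbols) and then chosen by their measured values, as those with a sum of 20 or more counts over the 6 libraries. Of 34590 symbols in the table, 237 fitted the pattern and 207 reached the minimum: 97 heavy V, 89 kappa V, 3 lambda V, 4 heavy J and 5 kappa J segments, 6 heavy constant genes, Igkc and 2 lambda constant genes. Of the 30 segments below the minimum 15 had no count in any library, and the highest sum among them was 14, for Igkv5-37, while Igkv6-29 entered with a sum of 20. The sum was taken over all glands alike and used neither the genotype nor the mouse, but both glands of mouse 3 gave most of the counts in it, so that the choice favours segments that are high in that mouse. A further 28 segments, with sums of at most 389, did not pass the filter on low counts, so that 179 of the 207 were tested. Igha, Ighd and Iglc1 were not analysed here.

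RNA was sequenced from 6 inguinal mammary glands (gland number 4) of 3 mice, with 85-base single-end reads. Each WT female host, of C57BL/6JOlaHsd background, had its fat pads cleared of their own epithelium at 3 weeks of age and carried on its left side WT.EGFP+ and on its right side Adamts18-/-.EGFP+ donor mammary epithelium. EGFP, an enhanced green fluorescent protein driven by the chicken β-actin promoter, marked the donor epithelium of both genotypes. Adamts18 encodes a secreted protease of the extracellular matrix, and the study asked how its loss from the epithelium changes gene expression in the gland. The pairs came from 3 independent experiments with 3 donors, so that host, donor and experiment cannot be told apart in a difference among mice. Side and genotype cannot be told apart either, since every Adamts18-/- graft was on the right. The host was WT in all 6 glands, and which cells of the host or graft gave the immunoglobulin transcripts is not recorded. The age of the mice at collection is not given in the sources used here for these glands, and the WT and Adamts18-/- groups each hold 3 glands.

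The libraries held 53875123 to 71595924 counts. Adamts18 itself was lower in the Adamts18-/- gland of every mouse, at 3.61, 9.92 and 6.80 CPM in the WT glands and 2.75, 4.87 and 3.29 CPM in the Adamts18-/- glands. CPM are counts scaled to the size of the library, and values of a genotype are given in the order of mice 1, 2 and 3. The labels name sorted GFP+ mammary epithelial cells. Against that label, 3 adipocyte markers (Adipoq, Plin1 and Fabp4) summed to 2926 to 7288 CPM and 5 macrophage markers to 1169 to 2081 CPM in the 6 libraries. Skeletal muscle markers (Myh4, Acta1 and Ckm) summed to 8256 and 8002 CPM in the Adamts18-/- glands of mice 1 and 2 and to 190 to 2070 CPM in the other 4. The luminal keratins Krt8 and Krt18 and the basal genes Krt14, Acta2 and Trp63 were called lower in Adamts18-/- glands, on the thresholds given with the genotype comparison. Each had an adjusted p of 0.987 (edgeR), and 1.84% of all genes tested were called lower. Epcam, Cdh1 and Krt5 of the same marker lists were not called. They were higher in the Adamts18-/- gland of mouse 1 (log2 ratios 0.28, 0.26 and 0.14) and lower in that of mice 2 and 3. In bulk samples fewer cells of a type and less RNA per cell cannot be told apart.

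Each B cell joins 1 V segment, with a J segment and in heavy chains a D segment, into the exon that forms the antigen-binding part of its antibody. The V exon is spliced to a constant region, which sets the class: IgM first, and IgG, IgE or IgA after class switching, while the light chain is either kappa or lambda. Plasma cells carry very large amounts of these transcripts, so that few of them can account for much immunoglobulin RNA in a tissue, and a cell and all its clonal descendants share the same V segments. Plasma cells of the mammary gland are best known for the antibodies of milk, which the epithelium carries across with the polymeric immunoglobulin receptor.

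The V segments that the results turn on are shown by the last 85 bases of their annotated coding part, as long as a read. This end is joined to the D segment in heavy chains and to the J segment in light chains. Sequences and positions are from GENCODE M21 on GRCm38, written 5′ to 3′ on the strand of the gene. The files were counted on another build (mm9), so no position is given for a read. The capitals mark the codon of the conserved cysteine where the third hypervariable loop begins. It was found on the coding strand as a tyrosine codon (TAC or TAT), then TAC, TAT, TTC or TTT, then TGC or TGT, in the last 85 bases of 175 of the 179 V segments with an annotated coding part. Ighv11-2 (chr12:114048241-114048812) and Igkv14-126 (chr6:67896172-67896642) led the counts in both glands of mouse 2 and the Adamts18-/- gland of mouse 1, and Ighv1-55 (chr12:115208095-115208591) and Igkv19-93 (chr6:68736297-68736780) in the WT gland of mouse 3. Ighv14-2 (chr12:113994469-113994898), Igkv4-50 (chr6:69700767-69701287) and Igkv6-23 (chr6:70260409-70260955) had the smallest p between the genotypes. Iglv1, Iglv2 and Iglv3 on chromosome 16 are all of the lambda V segments counted, and Iglv3 does not hold the codons searched for in these bases.
Ighv11-2: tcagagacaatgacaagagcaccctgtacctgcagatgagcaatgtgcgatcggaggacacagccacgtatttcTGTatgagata
Igkv14-126: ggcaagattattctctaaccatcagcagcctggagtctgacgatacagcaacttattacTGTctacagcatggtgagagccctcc
Ighv1-55: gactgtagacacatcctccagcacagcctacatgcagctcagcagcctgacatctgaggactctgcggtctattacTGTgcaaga
Igkv19-93: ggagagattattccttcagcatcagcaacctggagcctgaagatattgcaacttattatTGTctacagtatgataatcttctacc
Ighv14-2: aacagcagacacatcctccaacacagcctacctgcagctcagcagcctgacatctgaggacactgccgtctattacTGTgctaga
Igkv4-50: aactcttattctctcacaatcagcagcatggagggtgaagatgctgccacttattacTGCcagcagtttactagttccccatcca
Igkv6-23: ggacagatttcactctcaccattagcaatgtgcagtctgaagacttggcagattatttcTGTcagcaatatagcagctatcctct
Iglv1: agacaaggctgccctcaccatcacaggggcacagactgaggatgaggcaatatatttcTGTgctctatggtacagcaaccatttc
Iglv2: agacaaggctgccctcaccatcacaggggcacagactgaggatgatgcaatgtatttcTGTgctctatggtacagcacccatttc
Iglv3: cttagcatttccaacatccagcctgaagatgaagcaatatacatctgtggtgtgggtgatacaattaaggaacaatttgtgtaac
The ends of Iglv1 and Iglv2 are near copies of each other, and over the whole coding part they were 96.9% identical, whereas Iglv3 was 57.6% identical to Iglv1. Across the 189 V segments counted the median identity to the nearest other segment was 94.9%, and 86 were over 95% identical to another. Of these 189 segments, 82 shared no run of 85 bases with another immunoglobulin segment and 3 shared over 50% of their runs. A read that lies within a shared run cannot be assigned to a single segment by its sequence.

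The kappa J segments are shown whole, since each light chain transcript carries only 1 of them. The capitals mark TTCGGN, the phenylalanine and glycine codons that end the loop, searched on the coding strand. With TGGGGN for heavy J, 7 of the 9 J segments held their motif.
Igkj1: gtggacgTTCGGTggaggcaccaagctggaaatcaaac
Igkj2: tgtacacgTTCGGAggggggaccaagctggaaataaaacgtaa
Igkj3: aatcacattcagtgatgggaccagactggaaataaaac
Igkj4: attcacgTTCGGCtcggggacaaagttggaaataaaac
Igkj5: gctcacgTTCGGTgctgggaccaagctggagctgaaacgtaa
Igkj3, which lacks the motif, is known as a J segment that does not form functional kappa chains. Even so Igkj3 was counted, at 24, 9 and 155 counts in the WT glands and 17, 7 and 245 counts in the Adamts18-/- glands. The 4 heavy J segments together had 61 to 81 counts in each gland of mice 1 and 2, and 294 and 529 counts in the WT and Adamts18-/- glands of mouse 3. The 5 kappa J segments had 48 to 89 counts in each gland of mice 1 and 2, and 708 and 1261 counts in mouse 3. Annotated J segments of 38 to 54 bases are shorter than a read.

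Immunoglobulin transcripts were several-fold higher in both glands of mouse 3 than in the glands of the other mice. All 207 segments together took 0.211%, 0.440% and 1.55% of the counts in the WT glands, and 0.208%, 0.279% and 1.91% in the Adamts18-/- glands. On the CPM scale this was 2170.03, 4352 and 14876 in the WT glands (mean 7133 ± 6794, SD, n = 3) and 2142, 2915 and 18288 in the Adamts18-/- glands (7782 ± 9107, SD, n = 3). The 2 genotypes overlapped, and mice 1 and 2 differed less between their Adamts18-/- glands than the glands of mouse 2 did from each other. Within a mouse the log2 ratio of the Adamts18-/- gland to the WT gland was -0.02, -0.58 and 0.30 in mice 1, 2 and 3, so that the direction was not shared. Lymphocyte genes were likewise highest in mouse 3, and there most in its Adamts18-/- gland. Of B cell markers, Ms4a1, Cd79a, Cd79b, Pax5 and Cd22 summed to 117 CPM in the WT and 538 CPM in the Adamts18-/- gland of mouse 3 and to 9.03 to 14.4 CPM in the other 4. The 7 T cell markers summed to 178 and 499 CPM in mouse 3 and 27.5 to 68.1 CPM elsewhere, and Ptprc, a marker of all leukocytes, was at 204 and 549 CPM there and 86.5 to 105 CPM elsewhere. Their part in the results on mouse 3 was not tested. All 8 plasma cell markers read were detected in every gland and summed to 2248 and 2432 CPM in mouse 3 and 778 to 1022 CPM in the other 4, but most of this difference was Igj. The other 7 summed to 601 and 643 CPM in mouse 3 and 535 to 623 CPM elsewhere. Xbp1, at 307 to 355 CPM, was the largest part of that sum. Xbp1 and Sdc1 overlapped between mouse 3 and the other mice, and Irf4 was lowest in mouse 3, at 105 and 98.7 CPM. The remaining markers were highest in both glands of mouse 3. There 2010001M09Rik had 53.998 and 94.7 CPM, against at most 7.29 CPM elsewhere, and Derl3 had 22.8 and 27.95 against at most 5.15 CPM. Prdm1 had 14.9 and 18.3 against at most 9.69 CPM, and Tnfrsf17 had 3.18 and 3.69 against at most 1.74 CPM.

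**Figure D1:**
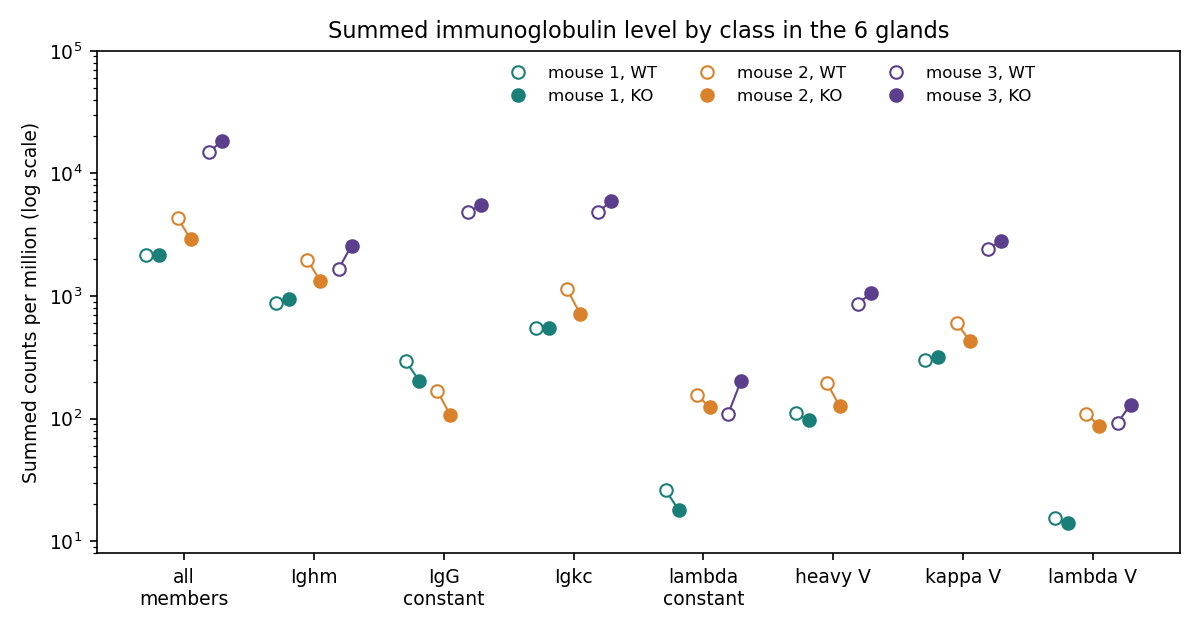
Summed level of each class of immunoglobulin segments in CPM (log axis), with 1 point per gland, open for WT and filled for Adamts18-/- (KO), and a line joining the glands of a mouse. The lines of mouse 3 lie highest for IgG constant, Igkc, heavy V and kappa V, while Ighm overlaps between mice 2 and 3, and the direction from WT to Adamts18-/- is down in mouse 2 and up in mouse 3.

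Not every class was shifted alike in mouse 3. The IgG constant genes Ighg1, Ighg2b, Ighg2c and Ighg3 summed to 293, 168 and 4870 CPM in the WT glands and to 204, 107 and 5529 CPM in the Adamts18-/- glands. Mouse 3 was thus 21.1-fold above the mean of the other WT glands and 35.5-fold above that of the other Adamts18-/- glands. Ighm, the constant region of IgM, stood at 873, 1976 and 1658 CPM in the WT glands and at 938, 1319 and 2581 CPM in the Adamts18-/- glands, and here mouse 2 and mouse 3 overlapped. Igkc, the kappa constant region, was at 547, 1137 and 4824 CPM in the WT glands and at 551, 717 and 5969 CPM in the Adamts18-/- glands. The lambda constant genes Iglc2 and Iglc3 summed to 26.1, 155 and 109 CPM in the WT glands and 18.0, 125 and 203 CPM in the Adamts18-/- glands, so that mouse 1 rather than mice 2 and 3 stood apart.

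Read as shares of the heavy chain constant counts, the classes separated the mice into an IgM-rich and an IgG-rich make-up. These counts leave out Igha and Ighd, so the shares are not of all heavy chain classes. Ighm took 74.9%, 92.1% and 25.4% of these counts in the WT glands and 82.1%, 92.5% and 31.8% in the Adamts18-/- glands. The 4 IgG genes took 25.1%, 7.86% and 74.6% in the WT glands and 17.9%, 7.52% and 68.1% in the Adamts18-/- glands. Per kilobase of coding sequence, the IgG share of mouse 3 was 77.8% in the WT and 71.8% in the Adamts18-/- gland, and it was 8.80% to 28.4% in the other glands, so the order of the mice did not rest on the length used.

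The IgG subclasses differed as well. Ighg1, which encodes the IgG1 heavy chain, went from 8.74 and 15.1 CPM in the WT glands of mice 2 and 1 to 1912 CPM in mouse 3, and from 4.37 and 9.18 to 1713 CPM in the Adamts18-/- glands. Ighg2c, for the IgG2c heavy chain, had 89.2, 42.8 and 1907 CPM in the WT and 75.1, 24.2 and 2285 CPM in the Adamts18-/- glands. Ighg2b had 104, 26.3 and 916 CPM in the WT glands and 51.1, 23.8 and 1193 CPM in the Adamts18-/- glands. Ighg3 took 7.28%, 4.23% and 2.06% of the heavy constant counts in the WT glands and 6.001%, 3.84% and 4.16% in the Adamts18-/- glands, so that its share was not raised in mouse 3. Which of Ighg1 and Ighg2c led in the WT gland of mouse 3 depended on the length: Ighg1 had 31.0% against 30.1% per coding kilobase, and 21.4% against 41.7% per kilobase of annotated exon. Ighe, the IgE constant region, had 22 counts in the WT gland and 364 counts in the Adamts18-/- gland of mouse 3, 3 counts in the Adamts18-/- gland of mouse 2 and none in the other 3 libraries, where a count of 0 allows up to 0.0430 to 0.0574 CPM, counting error only.

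**Figure D2:**
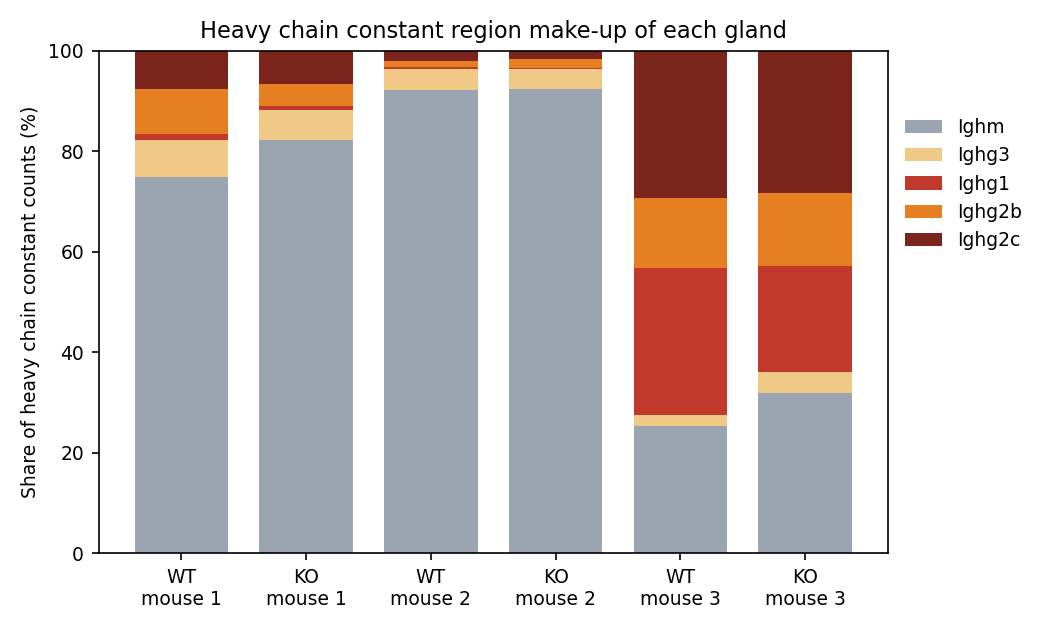
Share of the heavy chain constant counts (%), which leave out Igha and Ighd, taken by Ighm and the 4 IgG genes in each gland, as stacked bars. Ighm fills 74.9% or more of each bar of mice 1 and 2 and 25.4% and 31.8% of the bars of mouse 3, while Ighe is too small to draw.

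Mouse 2 was set apart by its lambda chains. The lambda constant genes took 11.97% (95% exact interval 11.7% to 12.2%, counting error only) of the light chain constant counts in the WT gland and 14.8% (14.5% to 15.1%) in the Adamts18-/- gland of mouse 2. In the other mice this share was 2.21% to 4.55%. Iglv3 stood out, as it had 77.0 and 68.8 CPM in the WT and Adamts18-/- glands of mouse 2 and 2.09 to 7.58 CPM in the other 4 glands. Of the lambda V counts Iglv3 held 70.1% and 79.3% in mouse 2 against 4.67% to 24.2% elsewhere. In the annotation Iglv3 and Iglv2 lie upstream of Iglc2, and Iglv1 lies upstream of Iglc3. Iglc2 held 94.0% and 96.0% of the lambda constant counts in mouse 2, 89.9% and 76.8% in mouse 1, and 62.3% and 60.1% in mouse 3. These counts are of Iglc2 and Iglc3 only, since Iglc1 was not analysed, and the lambda shares of light chain constant counts leave it out as well. Iglv1 was the most counted lambda V segment in both glands of mouse 1 (44.8% and 58.7%) and of mouse 3 (87.0% and 83.5%).

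V segments had fewer counts than the constant regions analysed here, in a ratio that differed by chain. The ratios here are of counts, with no correction for length. The constant counts leave out Igha, Ighd and Iglc1, whereas V counts cannot be split by the constant region used. Annotated exon length also differs among the heavy constant genes, at 1886 bases for Ighm, 1326 for Ighg2c and 2592 for Ighg1. The median annotated exon length was 353 bases for heavy V segments and 2199 bases for heavy constant genes. It was 362 bases for kappa V segments, against 532 bases for Igkc. Kappa V counts were 0.467 to 0.602 of the Igkc counts over the 6 glands, and heavy V counts were 0.0847 to 0.133 of the heavy constant counts. The heavy ratio was highest in the glands of mouse 3 (0.133 and 0.130), against 0.0847 to 0.0951 in the other 4. Light chain constant counts were 0.491 and 0.498 of the heavy constant counts in mouse 1, 0.602 and 0.590 in mouse 2 and 0.755 and 0.760 in mouse 3.

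Which V segments carried the counts also depended on the mouse. Ighv11-2 took 4.61%, 14.8% and 0.470% of the heavy V counts in the WT glands and 12.4%, 20.1% and 1.71% in the Adamts18-/- glands. Igkv14-126 took 6.01%, 18.3% and 0.813% of the kappa V counts in the WT glands and 13.0%, 21.6% and 2.66% in the Adamts18-/- glands. The order of the 6 glands was thus the same for this heavy and this kappa segment. As background, Ighv11-2 with Igkv14-126 forms the antibody to phosphatidylcholine known from B-1 cells, a B cell type of the body cavities that makes natural IgM. In CPM, Ighv11-2 had 5.10, 29.2 and 4.07 in the WT glands and 12.01, 25.4 and 18.1 in the Adamts18-/- glands, and Igkv14-126 had 18.2, 111 and 19.8 in the WT glands and 41.4, 93.4 and 74.2 in the Adamts18-/- glands. Neither passed the genotype thresholds (unadjusted p = 0.082 and 0.086, edgeR's quasi-likelihood test). Of the runs of 85 bases in Ighv11-2, 20.7% also lie in Ighv11-1, whose sum was 27 counts.

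In mouse 3 other segments led. Ighv1-55 held 11.9% of the heavy V counts in the WT gland and Ighv8-12 held 9.03% in the Adamts18-/- gland, where Ighv1-55 held 7.57%. Igkv19-93 led the kappa V counts of the WT gland with 8.28%, and Igkv2-112 those of the Adamts18-/- gland with 8.71%, against 0.926% in the WT gland of the same mouse. The WT gland of mouse 1 was led by Ighv8-8 (10.7%) and Igkv14-111 (7.48%). Igkv14-111 held 0.928% in the contralateral gland. By mean CPM over the 6 glands the 5 highest heavy V segments were Ighv1-55, Ighv1-26, Ighv1-14, Ighv8-12 and Ighv1-50, and per kilobase of annotated exon Ighv1-26 came before Ighv1-55. This order follows mouse 3, which has by far the highest heavy V level. By the mean share over the 6 glands, a ranking added after the data were seen, Ighv11-2 was first with 9.03%, before Ighv8-8 (5.69%) and Ighv1-55 (4.54%). The 5 highest kappa V segments were Igkv14-126, Igkv19-93, Igkv1-110, Igkv5-43 and Igkv3-2, and per kilobase Igkv14-126 and Igkv19-93 still led. By mean share Igkv14-126 was again first with 10.4%, followed by Igkv1-110 (4.98%).

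**Figure D3:**
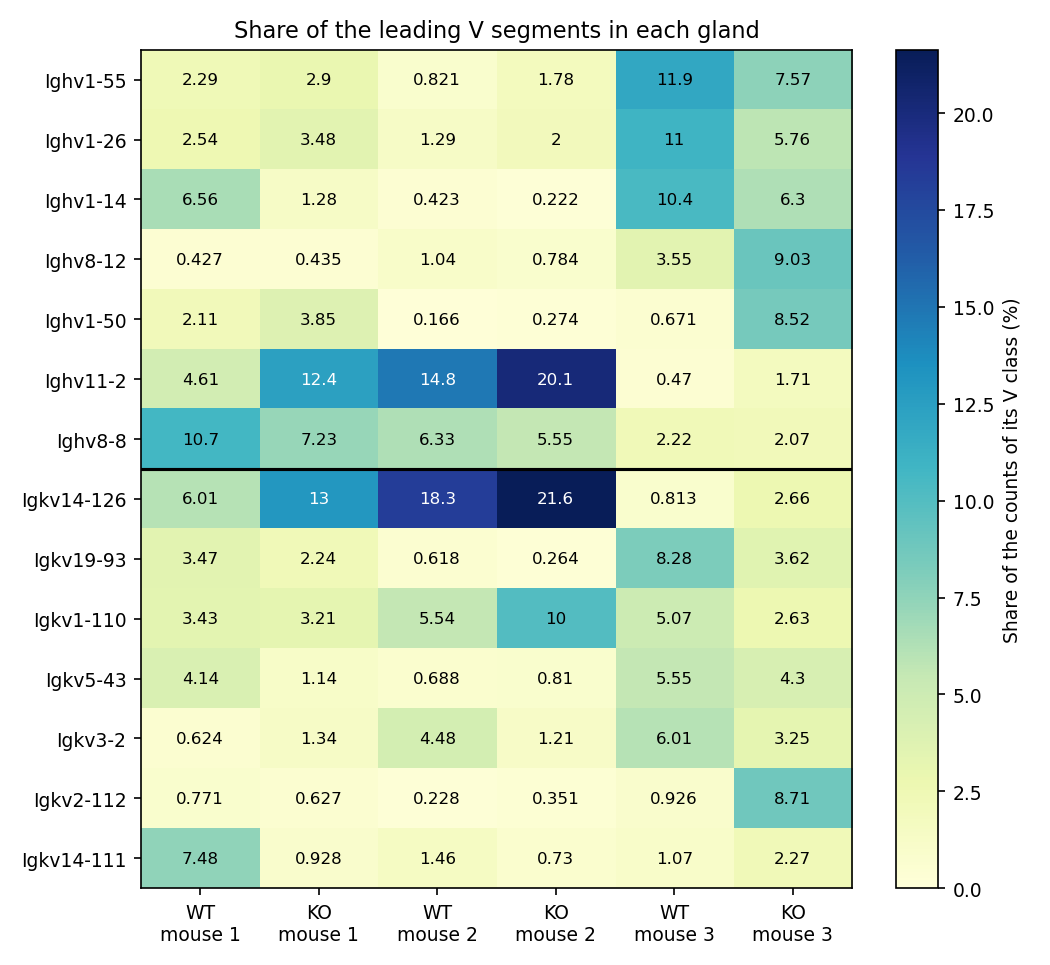
Share of the heavy V counts (rows above the line) or kappa V counts (rows below it) held by the leading segments in each gland, in %, printed in each cell and shaded from light (0) to dark. Ighv11-2 and Igkv14-126 are darkest in the glands of mouse 2 and the Adamts18-/- gland of mouse 1, and light in mouse 3.

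No V segment held more than 20.1% of the heavy or 21.6% of the kappa V counts of a gland. The effective number of V segments, the number of equally used ones that would give the same entropy, was 33.8 to 39.9 for the heavy and 23.8 to 41.4 for the kappa chains, and both kappa values under 28 (27.7 and 23.8) were from mouse 2. The top 5 segments held 36.0% to 42.3% of the heavy V counts of a gland and 25.2% to 55.7% of the kappa V counts. By family, the 50 segments of Ighv1, the largest heavy family, held 49.96% and 48.0% of the heavy V counts in mouse 1, 26.1% and 31.6% in mouse 2 and 64.1% and 52.7% in mouse 3. Among kappa families Igkv4 held 21.8% in each gland of mouse 1 and 8.36% to 10.98% elsewhere, and Igkv14 held 20.1% and 22.6% in mouse 2 and 2.01% and 5.84% in mouse 3.

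The V segment make-up of contralateral glands was more alike than that of glands from different mice. The overlap was taken as the sum over segments of the smaller of the 2 shares, so that 100% means equal make-up. For heavy V it was 64.7%, 71.9% and 68.5% between the glands of mice 1, 2 and 3, and 39.6% to 57.9% over the 12 pairs of glands from different mice. For kappa V it was 67.3%, 73.9% and 70.7% within mice and 41.7% to 56.4% between them. The lowest pair within a mouse was above the highest pair between mice for both chains. All of the contralateral pairs were of unlike genotype, whereas 6 of the 12 other pairs shared their genotype. Pairs share glands, so no test was made of these 15 values.

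**Figure D4:**
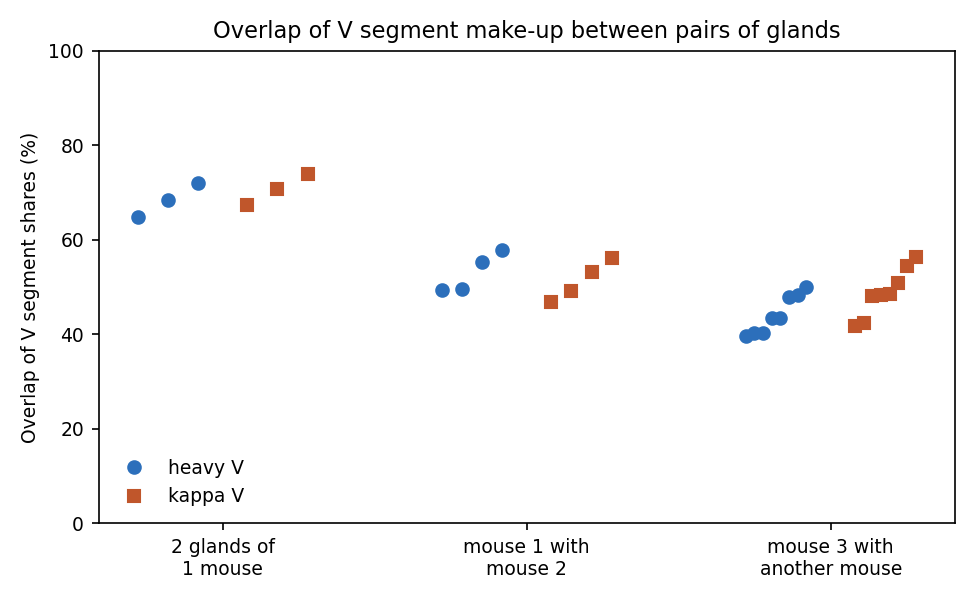
Overlap of V segment shares (%) for each pair of glands, heavy V as circles and kappa V as squares, for the 3 contralateral pairs, the 4 pairs of mouse 1 with mouse 2 and the 8 pairs of mouse 3 with another mouse, sorted within each group. The contralateral pairs lie at 64.7% to 73.9% and the pairs between mice at 39.6% to 57.9%.

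Even so the contralateral glands did not hold the same counts segment by segment. Among heavy V segments with at least 100 counts over the glands of a mouse, 12 of 31 in mouse 1, 14 of 41 in mouse 2 and 30 of 77 in mouse 3 differed by over 2-fold in share between the glands. Among kappa V segments these were 22 of 55, 18 of 58 and 24 of 71. Ighv5-12 had 618 counts in the WT and 8 in the Adamts18-/- gland of mouse 1, and Ighv4-1 had 17 and 307. Igkv4-56 was counted 230 times in the WT gland of mouse 1 and at most 2 times in any other gland. Igkv10-95 was counted 292 times in the Adamts18-/- gland of mouse 3 and at most 8 times elsewhere. Ighv1-50 had 327 counts in the WT and 5518 counts in the Adamts18-/- gland of mouse 3.

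The difference among mice was tested in the same fit as the genotype, by the F test of the mouse term in edgeR, with the p adjusted over all 17345 genes tested. Of the 179 segments 34 (19.0%) differed among mice at an adjusted p under 0.05, where 0.628% of all genes did. By class these were 3 of 5 heavy constant genes, Igkc, 11 of 84 heavy V, 16 of 76 kappa V, 1 of 3 lambda V and 1 each of 4 heavy J and 4 kappa J segments. Both glands of mouse 3 were above all others for 31 of the 34, the exceptions being Iglv3, Ighv1-83 and Igkv1-117. Ighg1 (adjusted p = 0.019) and Ighg2c (0.022) were among the 34, and Ighm (0.156) and Ighg3 (0.166) were not. Igkv11-125 was near absent in mice 1 and 2, at 0.803 and 0.0647 CPM in the WT glands and at most 0.0191 CPM in the Adamts18-/- glands, and reached 57.9 and 42.4 CPM in mouse 3. Ighv1-83 was a segment of mouse 2, with 3.74 and 4.55 CPM there and at most 1.20 CPM elsewhere. Over all 179 segments both glands of mouse 3 were the highest for 128 (71.5%), against 24.2% of all genes tested, a share that the choice by summed counts favours.

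Between the genotypes a segment was called when its unadjusted p was under 0.05 and its fold change lay below 0.8 or above the inverse of that value, in a fit of genotype with the mouse as a block. By this rule 13 of 179 segments were lower in Adamts18-/- glands, where 1.84% of all genes tested were, and 12 were higher, where 1.17% were. Those lower were Ighg1, 8 heavy V and 4 kappa V segments, and those higher were 7 heavy V and 5 kappa V segments. No segment passed at an adjusted p under 0.05 (smallest adjusted p = 0.987), as no gene of the table did (0.771). At an unadjusted p under 0.05 there were 25 segments and 670 genes of the whole table. DESeq2, fitted as an alternative, gave 5 segments (Ighv1-14, Ighv14-2, Igkv19-93, Igkv4-50 and Igkv6-23) and 71 genes at an adjusted p under 0.05, and limma-voom gave none of either. The median fitted log2 fold change was -0.04 over the segments and 0.00065 over all genes, and 95 of the 179 segments were below 0.

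The direction followed the mouse. Ratios of the Adamts18-/- to the WT gland were below 0 on the log2 scale for 94 of the 179 segments in mouse 1 (median -0.04), 127 in mouse 2 (median -0.54) and 55 in mouse 3 (median 0.47). Over all genes tested 8965, 8808 and 8844 of 17345 were below 0. Without mouse 3, 32 of 166 segments were lower and 10 higher in Adamts18-/- glands, where 1.65% and 3.34% of all genes were. Without mouse 2, 8 of 188 were lower and 32 higher, where 1.22% and 1.82% of all genes were. The lymphocyte genes that were highest in the Adamts18-/- gland of mouse 3 move with these counts, and their part was not tested.

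Of the constant regions only Ighg1 passed the thresholds. It was lower in the Adamts18-/- gland of each mouse, with a fitted fold of 0.653 (log2 fold change -0.62 ± 0.19, SE, unadjusted p = 0.025, adjusted p = 0.987, edgeR). Its log2 ratios were -0.72, -0.99 and -0.16 in mice 1, 2 and 3. Ighm had ratios of 0.10, -0.58 and 0.64 and a fitted log2 fold change of 0.05 ± 0.26 (SE). Igkc had ratios of 0.01, -0.66 and 0.31, Ighg2c -0.25, -0.82 and 0.26, Ighg2b -1.02, -0.14 and 0.38, and Ighg3 -0.31, -0.73 and 1.33. Iglc2 had ratios of -0.76, -0.28 and 0.85 and Iglc3 of 0.67, -0.87 and 0.98. Each of these 7 lay on both sides of 0 among the 3 mice.

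Of the 13 segments called lower, all were lower in the Adamts18-/- gland in 3 of 3 mice, by fitted folds of 0.313 to 0.653. Ighv14-2 had the smallest p of the 179 (log2 fold change -1.68 ± 0.22, SE, unadjusted p = 0.000905, adjusted p = 0.987, edgeR), with 13, 402 and 2462 counts in the WT glands and 6, 100 and 853 counts in the Adamts18-/- glands. Igkv19-93 had 734, 230 and 11369 counts in the WT glands and 371, 69 and 6202 in the Adamts18-/- glands (log2 fold change -1.04). Ighv1-80 fell from 242, 78 and 651 counts to 120, 32 and 215 (-1.20). Ighv6-3 fell from 107, 261 and 586 counts to 48, 65 and 356 (-1.19). Igkv4-53 had 306, 391 and 131 counts in the WT glands and 90, 124 and 118 in the Adamts18-/- glands (-1.10), so that mouse 3 added little. Ighv1-14, which is annotated as a V pseudogene, had 507, 51 and 5080 counts against 65, 17 and 4078 (-1.40). The other 6 were Ighv1-81 (-0.71), Igkv4-59 (-0.71), Igkv8-16 (-0.74), Ighv1-72 (-0.99), Ighv1-76 (-1.13) and Ighv5-17 (-1.26). Ighv5-17 differed little in mouse 1, with 89 counts in 71595924 and 66 in 53875123. Ighv1-72 shares 58.3% of its runs of 85 bases with Ighv1-62-3, and Igkv4-59 shares 33.5% and Igkv8-16 55.8% of theirs with other genes, so their counts are uncertain.

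Of the 12 segments called higher, 10 had a log2 ratio above 0 in 3 of 3 mice, the exceptions being Ighv5-16 in mouse 1 and Ighv9-1 in mouse 2. Fitted folds were 1.63 to 4.64. For Ighv13-2 in mouse 1 and Ighv1-18 in mouse 2 the log2 ratio was near 0, at 0.00045 and 0.017. Ighv13-2 had 2 counts in the WT and 1 in the Adamts18-/- gland of mouse 1 (0.0287 and 0.0191 CPM). Its ratio there was above 0 only through the prior count of 2, and its plain CPM was lower in the Adamts18-/- gland. Igkv4-50 led with 3, 78 and 107 counts in the WT glands and 22, 213 and 686 in the Adamts18-/- glands (log2 fold change 2.22 ± 0.36, SE, unadjusted p = 0.00206, adjusted p = 0.987, edgeR). Igkv6-23 was the most even, with 330, 92 and 3052 counts in the WT and 333, 163 and 6047 in the Adamts18-/- glands and log2 ratios of 0.43, 0.83 and 0.86 (fitted 0.71 ± 0.12, SE). Ighv10-3 had 10, 9 and 41 counts against 30, 17 and 115 (1.43), and Igkv3-4 had 718, 66 and 4379 counts against 1379, 79 and 6542 (0.74). Igkv4-63 had 394, 11 and 26 counts in the WT and 457, 50 and 321 in the Adamts18-/- glands (2.01). Ighv9-1 had 15, 14 and 100 counts against 37, 12 and 1132 (1.98), with log2 ratios of 1.61, -0.18 and 3.35. The other 6 were Ighv5-16 (1.84), Ighv3-8 (1.35), Igkv3-1 (1.21), Ighv13-2 (0.97), Ighv1-18 (0.95) and Ighv1-85 (0.81). For the 25 called segments the WT and Adamts18-/- groups overlapped in CPM in all but 1, Igkv4-53, whose Adamts18-/- glands (1.72 to 2.05 CPM) were all below its WT glands (2.33 to 6.38 CPM). It was also the only such segment of the 179 tested (0.559%), against 4.94% of all genes tested.

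**Figure D5:**
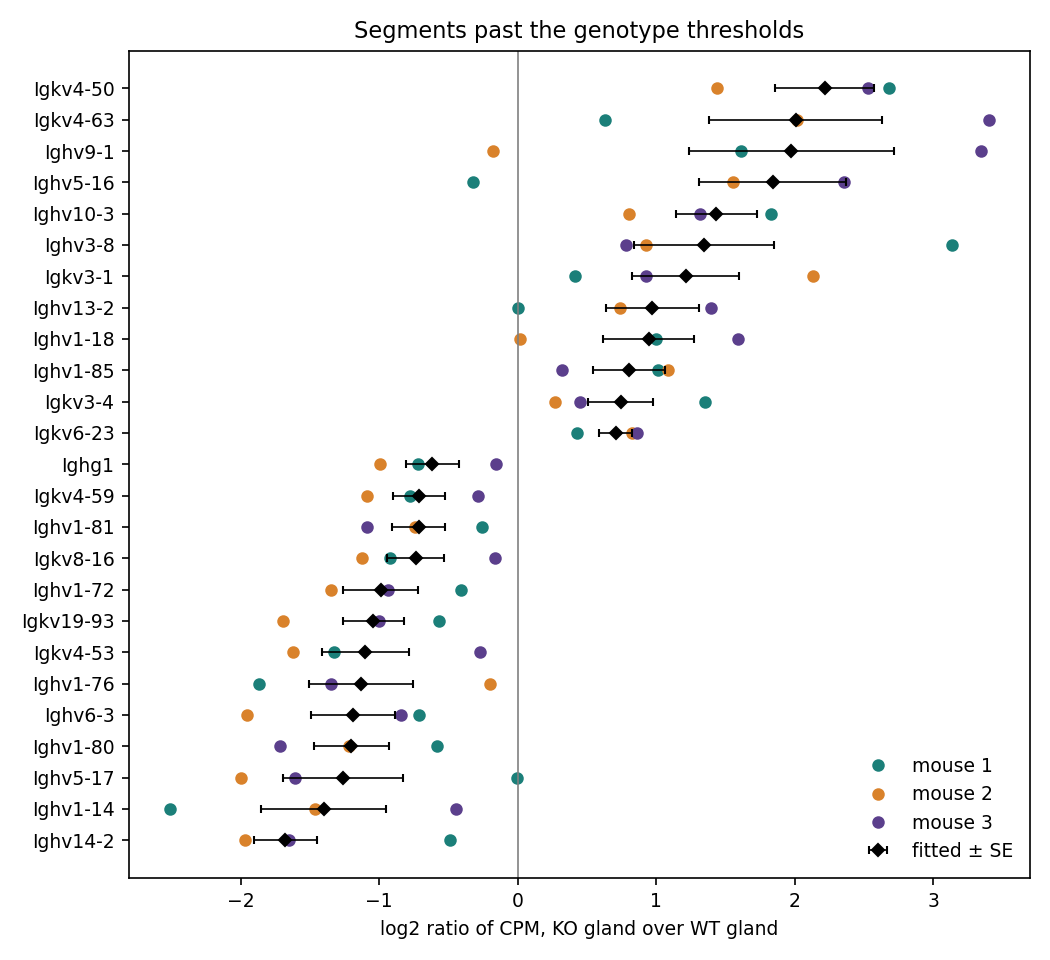
Log2 ratio of CPM with a prior count of 2, Adamts18-/- (KO) over WT gland, for the 25 segments past the genotype thresholds. A coloured point is given per mouse and a diamond for the fitted value ± SE. All 13 segments below 0 have their 3 mice on that side, whereas Ighv5-16 and Ighv9-1 each have 1 mouse on the other side.

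Genes of the cells that make and carry antibody were read beside the segments. The shares of all genes tested to set beside the calls in these lists are 1.84% lower and 1.17% higher. Of 17 plasma cell genes tested none was called by genotype in either direction. Igj is the J chain that joins IgM and IgA into polymers. It had 197, 488 and 1647 CPM in the WT and 218, 333 and 1789 CPM in the Adamts18-/- glands. Its counts were 0.113 to 0.147 of the constant counts analysed here in every gland, and those leave out Igha, Ighd and Iglc1. Igj differed among mice (adjusted p = 0.047, edgeR), as did Derl3 (0.040), a protein of endoplasmic reticulum degradation, and 2010001M09Rik (0.048). Xbp1, a secretory regulator that epithelial cells also use, stayed between 307 and 355 CPM. Tnfrsf17, the receptor for survival signals on plasma cells, had 1.68, 0.962 and 3.18 CPM in the WT and 1.74, 0.743 and 3.69 CPM in the Adamts18-/- glands.

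B cell genes too were mostly highest in mouse 3. None of 16 was called by genotype, and none differed among mice at an adjusted p under 0.05. Both glands of mouse 3 were highest for 15 of 16, against 13 of 17 plasma cell genes and 24.2% of all genes tested. Ms4a1, a surface protein of B cells, had 2.35, 1.501 and 22.2 CPM in the WT and 1.87, 1.12 and 108 CPM in the Adamts18-/- glands. Cr2, the complement receptor of B cells and follicular dendritic cells, had 0.746, 0.310 and 4.72 CPM against 0.134, 0.231 and 103 CPM. The glands of mouse 3 were closer to each other in their IgG constant genes (4870 and 5529 CPM) and in Igj than in these B cell genes. Rag1 had at most 2 counts and Rag2 none in any gland, and none of the 4 recombination and class switch genes tested was called.

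Of the antibody transport and homing genes 1 was called, as higher, where 1.17% of all genes tested were. None of 11 transport and Fc receptor genes was called: Pigr, which carries polymeric antibody across epithelium, had 1.65, 2.99 and 9.73 CPM in the WT and 3.82, 1.09 and 10.2 CPM in the Adamts18-/- glands, and Fcgrt, the neonatal Fc receptor, had 173 to 362 CPM. Of 14 homing and survival genes tested 1 was called, Itgb7, an integrin chain of lymphocyte homing, with 42.3, 38.6 and 71.6 CPM in the WT and 54.7, 44.7 and 127 CPM in the Adamts18-/- glands (log2 fold change 0.47, unadjusted p = 0.020, adjusted p = 0.987, edgeR). Ccl28, a chemokine that draws IgA plasma cells to the lactating gland, was at 0 in all 6 libraries. The survival cytokine Tnfsf13b had 5.07 to 8.25 CPM over the 6 glands.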

How the data were processed

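The deposited values were whole-number read counts per gene symbol for 6 libraries, made by the authors and, per the labels, with bcl2fastq 2.18, TopHat2 2.0.11 and featureCounts 1.6.2 on mm9. The annotation, the strand setting and the treatment of reads that map to several places are not given in the sources used here. Groups and mouse numbers were taken from the sample titles.

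Counts were scaled by TMM, filtered with filterByExpr and fitted with edgeR 4.0.16 (R 4.3.3) by the quasi-likelihood test with mouse as a block and genotype tested, for all 17345 genes kept of 34590. Adjustment was by Benjamini and Hochberg over these genes. The study's thresholds were used, an unadjusted p under 0.05 and a fold change below 0.8 or above its inverse. Log2 ratios per mouse used a prior count of 2. Summed levels, shares and overlaps were given with no test. Alternatives were DESeq2 1.42.0 (likelihood ratio test for the mouse term), limma-voom from limma 3.58.1, other scalings and filters, no block, and each mouse left out. The fits were first tested on simulated data.

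Contralateral glands of a mouse, paired by the design, deviated together from their group means across all genes (correlations 0.510, 0.503 and 0.638). The samples of a group come from separate host mice and from 3 donors. Sequences and lengths were read from GENCODE M21, and identities computed with edlib 1.3.9.post1. The median biological coefficient of variation was 16.3%.

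Genes were named by a rule: every constant region, the 5 highest V segments of each class, the V segment leading each gland, every segment past the thresholds, and segments at the minimum of 20 counts. Other V segments named for their spread between glands or mice were chosen after their values were seen. The segments and gene lists were chosen with earlier results of these data known. Of the gene lists, 2 genes are not reported here, and the counts and sums of their lists leave them out.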

Additional observations from a re-analysis of the deposited data

How the results depend on the processing

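With no replicate block (the mouse left out of the design) 1 of 179 segments was called lower and 0 higher, against 13 and 12 with it, where 0.721% and 1.26% of all genes were. That fit turned the sign of 4 constant regions that were not called, to log2 fold changes of 0.23 for Ighg2c, 0.28 for Ighg2b, 0.15 for Igkc and 0.11 for Iglc2. DESeq2 called 21 lower, where 1.71% of all genes were. Requiring at least 10 counts in every library left 117 segments tested and 6 higher, where 1.11% of all genes were. The other scalings and limma-voom stayed within 1.5 times of the counts reported. Leaving out a mouse gave 8 (without mouse 2) to 32 (without mouse 3) segments lower and 10 (without mouse 3) to 32 (without mouse 2) higher. The segments that differ among mice were 137 of 179 with DESeq2, where 20.4% of all genes did, and 111 of 207 with no filter on low counts, where 4.50% did. They were 18 of 191, 7 of 188 and 19 of 166 without mice 1, 2 and 3, where 0.114%, 0.0685% and 0.276% of all genes did. The 25 called segments had 267 values over these alternative fits, with each segment counted once per fit that kept it. None of these values changed sign, and 60 fell short of the thresholds, 24 of them with no block and 29 with a mouse left out. All 13 called lower and 10 of the 12 called higher already had ratios of 1 sign in all 3 mice. Leaving out a mouse could thus hardly reverse them, and the stable sign adds no separate evidence. Reversals also came from limma-voom for Iglc2 (0.026) and from leaving out a mouse, over ranges of -0.23 to 0.37 for Ighm, -0.52 to 0.0071 for Ighg2c, -0.58 to 0.12 for Ighg2b, -0.51 to 0.51 for Ighg3, -0.32 to 0.16 for Igkc, -0.50 to 0.28 for Iglc2 and -0.12 to 0.84 for Iglc3. Without mouse 3, Ighg2c, Ighg2b, Ighg3 and Iglc2 passed the thresholds as lower, and 5 segments (Igkv10-96, Igkv4-53, Igkv5-48, Igkv8-16 and Iglv2) and 268 genes passed at an adjusted p under 0.05. The cause was not tested. Mean IgG share was 33.5% over the glands, 36.1% per coding and 33.1% per exon kilobase, and mean lambda share 6.67% and 6.81% per coding kilobase. Both per-kilobase values were chosen after seeing the data. Depth limits segments with few counts, such as Ighv14-2 in mouse 1, and intervals cover counting error only.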
